A study of Mus musculus with 32 samples.

Results

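Capture-C contacts of the mouse gene Ciita were measured from 3 bait fragments, named Ciita_1, Ciita_2 and Ciita_3, each of which covers a different group of annotated transcription start sites (TSS). Capture-C cuts fixed chromatin with DpnII, joins fragments that lay near each other in the nucleus, and enriches the joined products that carry a chosen bait. The value of a pair is the number of reads that link the bait to another fragment. Every pair of a Ciita bait with a fragment at a distance of at least 10 kb and under 1 Mb was taken, and pairs were matched between the deposited tables by their fragment numbers. This gave 233 of the 30435 fragment pairs in the series, and 1237 pairs of all 14 baits lie in the same distance range. Ciita_1 had 53 of them, Ciita_2 had 99 and Ciita_3 had 81, and each of the 2 tables listed 221.

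The organoids were grown from the small-intestinal epithelium of aged C57BL/6JRj mice. One group received IFNγ at 500 pg/ml in growth medium for 3 hours, 3 days after splitting, and the control group received growth medium alone for the same time. All groups were from aged animals and carried no engineered allele named in the labels. The 4 libraries of a condition represent 2 mice, each sampled at 2 passages, and both conditions come from the same mice and passages. The 8 libraries were each run on 4 lanes, which gives the 32 samples. The count columns name neither mouse nor passage, so libraries carry a number within their table only. A p-value or SD over libraries can come out too small, because all 8 libraries come from 2 mice. The tables hold no expression values, so the epithelial identity of the cultures could not be checked against marker genes.

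Which table belongs to which condition is not settled, because the sample descriptions attach the control-named table to the IFNγ samples and the IFNγ-named table to the control samples. The tables are called by their names, no table is assigned to a condition, and every signed difference between them is the IFNγ-named minus the control-named value. Its sign turns under the opposite subtraction.

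CIITA is the transcriptional coactivator that switches on the MHC class II genes, whose products present peptides to CD4+ T cells. The mouse gene is transcribed from alternative promoters: promoter I is known for dendritic cells and macrophages, promoter III for B cells and plasmacytoid dendritic cells, and promoter IV for the response to IFNγ in epithelial and other non-haematopoietic cells. Promoter IV is known to carry GAS, E box and IRF elements. The labels do not say which bait stands for which promoter, and no such name was given here.

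Ciita lies on the plus strand of chromosome 16 (build mm10), so upstream means a lower coordinate. Bait Ciita_1 is the 918 bp fragment chr16:10479663-10480580, in which the annotation places 3 TSS between 10480059 and 10480164. Ciita_2 is the 2229 bp fragment chr16:10486858-10489086, with 2 TSS at 10488178 and 10488279. Ciita_3 is the 328 bp fragment chr16:10489551-10489878, with 3 TSS between 10489746 and 10489783. The midpoints of Ciita_2 and Ciita_3 are 1.74 kb apart, while Ciita_1 lies 7.85 kb and 9.59 kb upstream of them.

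The sequences below belong to fragments on which the results turn. The first 5 are contacts with a score of 5 or more in both tables, of at most 300 bases, and the last is the fragment with 10 or more reads from all 3 baits. They were read from the mm10 genome on the plus strand, and capitals mark the letters of a searched motif.
Ciita_3 contact chr16:10271453-10271595, between genes: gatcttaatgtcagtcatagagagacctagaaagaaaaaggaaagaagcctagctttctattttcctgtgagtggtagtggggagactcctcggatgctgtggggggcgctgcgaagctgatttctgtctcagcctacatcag
Ciita_2 contact chr16:10277251-10277432, between genes: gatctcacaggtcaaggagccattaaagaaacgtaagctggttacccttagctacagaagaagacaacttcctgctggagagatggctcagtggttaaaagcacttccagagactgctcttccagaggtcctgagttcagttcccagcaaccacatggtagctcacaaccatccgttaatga
Ciita_2 contact chr16:10290924-10291212, Emp2 intron: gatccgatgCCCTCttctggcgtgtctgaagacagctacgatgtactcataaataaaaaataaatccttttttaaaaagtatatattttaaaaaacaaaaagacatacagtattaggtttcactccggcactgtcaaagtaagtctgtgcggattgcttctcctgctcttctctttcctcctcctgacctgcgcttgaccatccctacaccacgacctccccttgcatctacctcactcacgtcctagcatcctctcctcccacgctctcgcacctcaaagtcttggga
Ciita_3 contact chr16:10944565-10944698, between genes: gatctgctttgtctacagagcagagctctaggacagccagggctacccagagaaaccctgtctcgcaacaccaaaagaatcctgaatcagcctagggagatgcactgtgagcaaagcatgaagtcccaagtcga
Ciita_3 contact chr16:11248096-11248197, Gspt1 intron: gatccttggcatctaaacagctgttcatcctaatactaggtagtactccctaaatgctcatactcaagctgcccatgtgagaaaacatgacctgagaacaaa
Fragment of all 3 baits chr16:10508953-10509248, intron of Ciita and of Dexi: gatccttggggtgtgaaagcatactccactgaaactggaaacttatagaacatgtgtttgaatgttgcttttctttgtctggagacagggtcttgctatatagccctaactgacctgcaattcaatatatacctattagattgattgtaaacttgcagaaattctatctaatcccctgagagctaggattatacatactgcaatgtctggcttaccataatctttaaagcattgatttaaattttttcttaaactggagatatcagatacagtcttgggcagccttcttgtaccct

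Both strands of these 6 fragments were searched for GAS (TTCNNNGAA), E box (CACGTG), IRF half-pair and CTCF core (CCCTC) letters. GAS, E box and IRF letters were in 0 of 6. CCCTC was in 1 of 6, the Emp2 intron fragment, and 50.6% of the 6953 windows of 289 bp around the locus hold it, so the match is common. A match is a description of letters and not a binding site. Over the 32851 RefSeq promoters of this build, each 250 bases before to 50 after a start, 8.30% hold GAS letters, 7.15% an E box, 3.44% the IRF letters and 66.0% CCCTC. A RefSeq promoter entry was matched for 19 of the 23 genes listed around the locus, and none was matched for Ciita.

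The genome marks 62.6% of the letters of the Ciita_2 contact at chr16:10277251-10277432 as repeat, 51.5% of the Ciita_3 contact at chr16:10944565-10944698 and 0.0% of the Gspt1 fragment. The median over the 8 contacts with a score of 5 or more in both tables was 49.3%, beside 22.1% over the 3794 digest fragments of at least 100 bases around the locus. Over the 48 contacts with such a score in 1 or both tables it was 21.8%, near that of the digest. The part of repeats in the read counts was not tested.

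The libraries held 23037 to 37290 reads over all baits, of which 1680 to 3286 were Ciita reads in the distance range. The reads per library in range were 289 to 628 for Ciita_1, 643 to 1273 for Ciita_2 and 380 to 1477 for Ciita_3. Of the 159 Ciita pairs with 40 or more reads, 157 had reads in all 8 libraries, and in 71 of them (44.7%) a single library held over 50% of the reads. The highest library held 51.7% of a pair's reads on average and the second 10.8%. Among pairs of the 11 other baits the share led by 1 library was 40.7%. This pattern of 1 high and 7 low libraries was seen in 17 of 36 such pairs of Ciita_1, 23 of 65 of Ciita_2 and 31 of 58 of Ciita_3. Whether reads passed between libraries was not tested. The shares by distance and side, the windows and the number of gene differences between baits are also given with each pair's reads kept in its leading library alone, an alternative chosen after seeing the data. The reads carry no molecular identifiers and can be copies of 1 molecule, so limits set by a count of 0 cover counting error only.

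Contacts were sparse on the digest. In range of Ciita_1 lay 3720 fragments, of which 1.43% had a read, while 2.66% of 3721 had one from Ciita_2 and 2.18% of 3723 from Ciita_3. Ciita_1 gave 3741 reads in range, Ciita_2 gave 7664 and Ciita_3 gave 7412. A median of 64 reads fell on a fragment of Ciita_1, 67 on one of Ciita_2 and 75 on one of Ciita_3, and the highest were 191, 392 and 325. The baits thus differed in the number of fragments that carried reads more than in the reads per fragment. Capture efficiency and bait length differ between baits, so totals of reads cannot be told apart from capture. The permutation tests below use each bait's own shares. The window tests use reads that edgeR scaled for each bait and library (TMM normalization). Their log2 differences therefore need not equal the ratio of 2 shares.

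**Figure D1:**
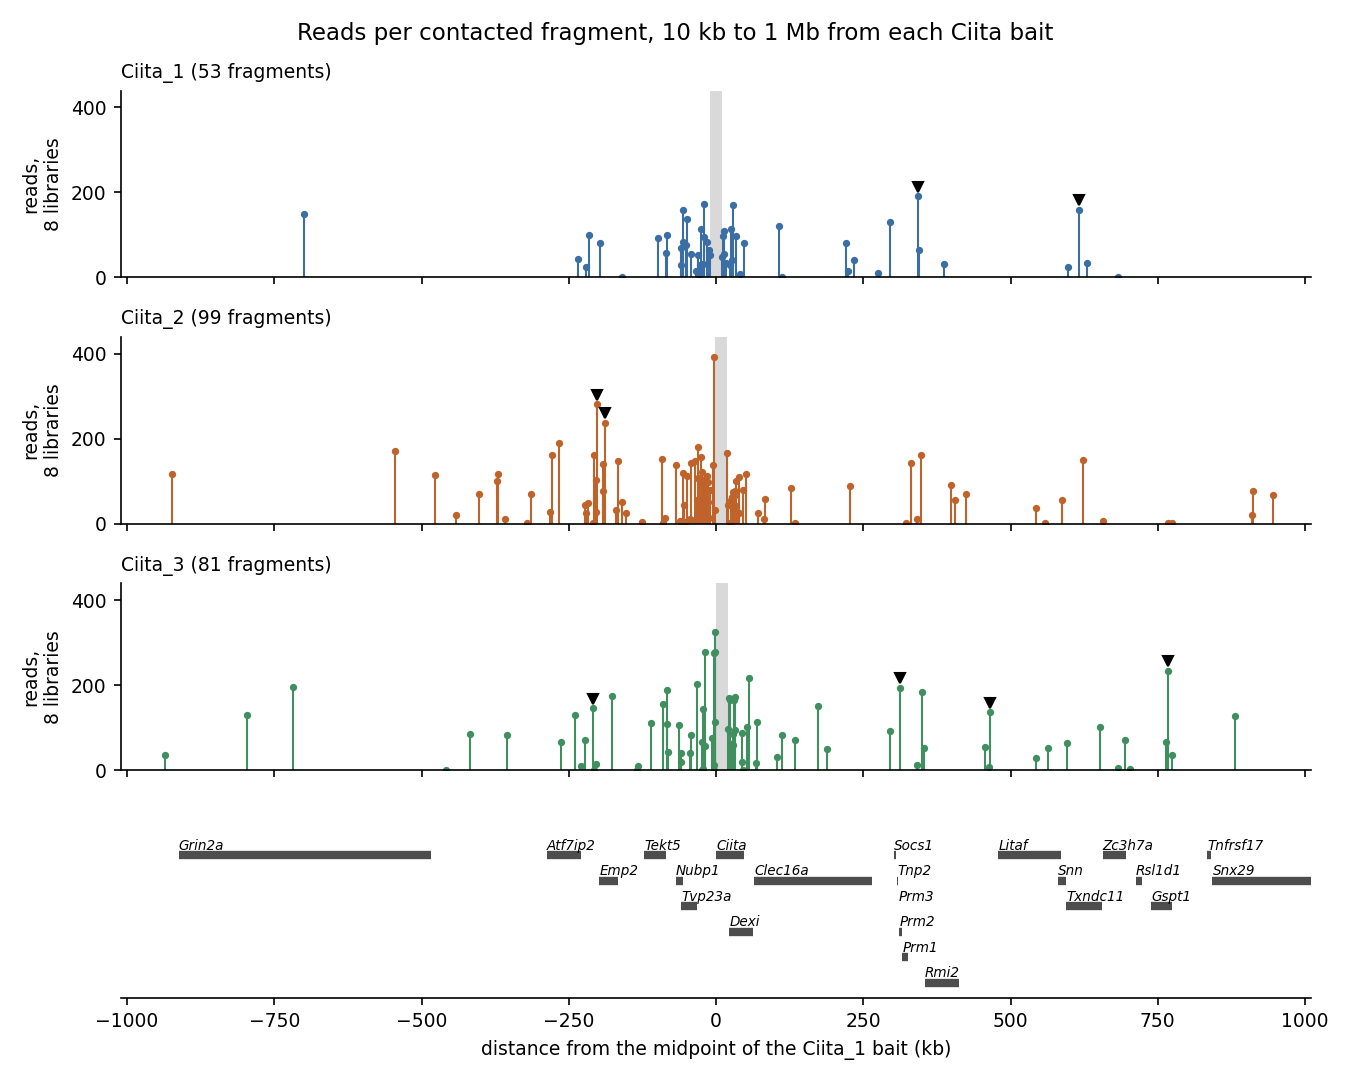
Reads over all 8 libraries on each fragment (vertical axis) against the distance in kb from the midpoint of the Ciita_1 bait (horizontal axis), 1 panel for each bait, with black triangles for the 8 contacts that scored 5 or more in both tables and a grey band for the excluded 10 kb on either side. Reads stand highest close to the baits, and the far peaks of the 3 baits mostly lie on different fragments.

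Within 50 kb lay 47.7% of the in-range reads of Ciita_1, 42.5% of those of Ciita_2 and 45.0% of those of Ciita_3. The baits differed beyond that. Between 50 and 100 kb downstream Ciita_1 had 0 reads on 0 fragments, Ciita_2 had 95 on 3 and Ciita_3 had 160 on 3. Between 250 and 500 kb upstream Ciita_1 again had 0, while Ciita_2 had 887 reads on 11 fragments (11.6% of its reads) and Ciita_3 had 235 on 4 (3.17%). From 100 to 250 kb upstream Ciita_2 placed 20.3% of its reads on 17 fragments, against 6.55% on 5 fragments for Ciita_1 and 11.1% on 11 for Ciita_3. A count of 0 among the 3741 reads of Ciita_1 allows a share of up to 0.0802%, taking 3 reads as the limit.

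Ciita_2 pointed upstream more than its neighbours did. The upstream share of Ciita_1 had its lowest library at 36.1%, a median of 51.0% and its highest at 67.9%. For Ciita_2 the lowest was 62.0%, the median 71.7% and the highest 77.4%. Ciita_3 ran from 41.8% through a median of 54.2% to 64.5%. The means were 51.4% ± 11.2, 70.4% ± 5.67 and 53.4% ± 7.26 (SD, n = 8). Ciita_2 was higher than Ciita_1 in 8 of 8 libraries, by 19.0 percentage points (adjusted p = 0.0234), and higher than Ciita_3 in 7 of 8, by 17.0 points on average (Ciita_3 minus Ciita_2 -17.0, adjusted p = 0.0234). These are two-sided exact permutation tests of the paired difference over libraries, adjusted by Benjamini-Hochberg over the 3 bait pairs, in which 8 pairs cannot give a p under 0.00781. Ciita_3 minus Ciita_1 was 2.05 points (exact permutation p = 0.719).

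Within the control-named table alone Ciita_2 exceeded Ciita_1 by 26.0 points, and within the IFNγ-named table by 12.1 points. Ciita_3 minus Ciita_2 was -21.5 and -12.5 points in the same tables, where 4 pairs cannot give a p under 0.125. With each pair counted in its leading library alone, both differences kept their sign and missed the threshold, at 14.4 points (exact permutation, adjusted p = 0.375) and -11.2 points (adjusted p = 0.141). Counting each fragment once in place of its reads, Ciita_2 exceeded Ciita_1 by 9.10 points, and Ciita_3 fell below Ciita_1 by 7.66 points (-7.66). In that setting the libraries are near copies of each other. Each had reads on 46 to 48 of the 53 fragments of Ciita_1, for example. A p over libraries then comes out too small, and none is given.

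The share of reads beyond 100 kb was 34.3% ± 8.95 for Ciita_1, 50.4% ± 8.48 for Ciita_2 and 47.0% ± 13.2 for Ciita_3 (SD, n = 8). Ciita_2 minus Ciita_1 was 16.2 points (exact permutation, adjusted p = 0.0703) and Ciita_3 minus Ciita_1 12.8 points (adjusted p = 0.117), so neither passed. Leaving out 1 library turned 1 call in each: without control-named replicate 2 the first was 18.8 points and passed, and without control-named replicate 1 the second was 17.8 points and passed. Reads in range as a share of all reads of the bait were 23.9% ± 3.43, 27.5% ± 2.69 and 25.6% ± 4.57 (SD, n = 8), and no bait pair passed the exact permutation test (adjusted p from 0.141 to 0.406). With each pair counted in its leading library alone, no bait pair passed for the share beyond 100 kb (13.7, 10.96 and -2.77 points, exact permutation, adjusted p from 0.398 to 0.781) or for the in-range share (-0.10, -0.49 and -0.39 points, adjusted p from 0.832 to 0.875).

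**Figure D2:**
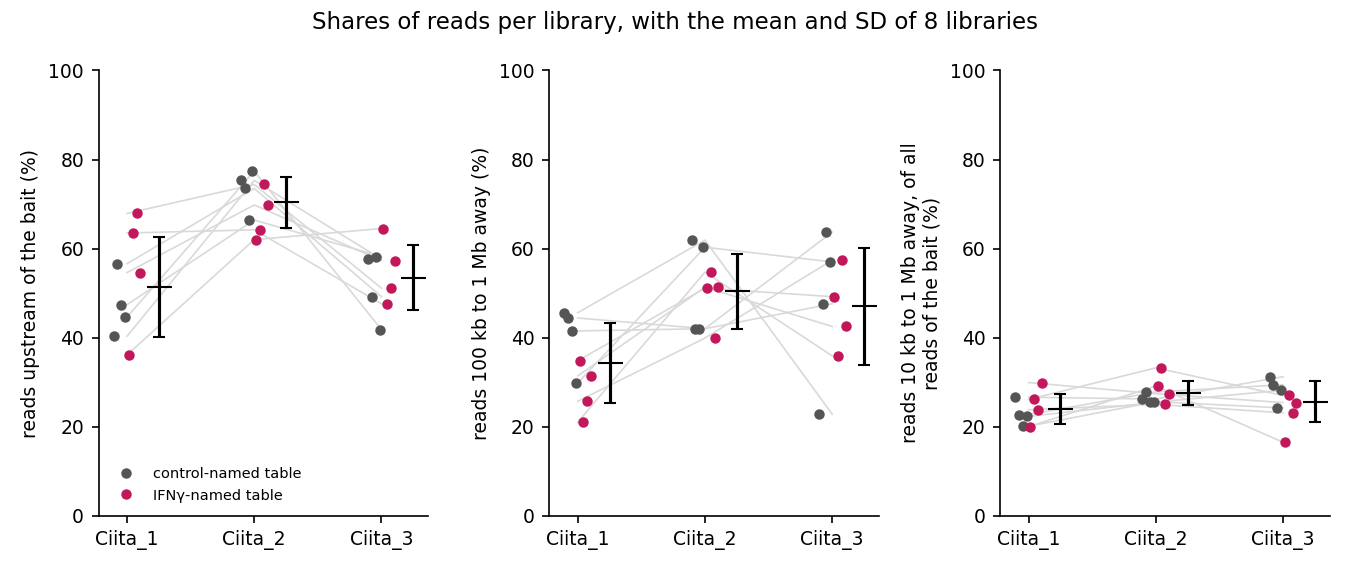
Share of in-range reads that lie upstream, share beyond 100 kb, and in-range reads as a share of all reads of the bait, in percent, for each of the 8 libraries at each bait; lines join the values of 1 library and bars give the mean and SD. In the first panel Ciita_2 lies between 62.0% and 77.4%, and the other baits between 36.1% and 67.9%.

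Along the locus the baits were compared in windows of 10 kb. A window's distance differs by up to 9.59 kb between baits, which matters most for windows near them. Of 196 windows in range of all 3, 84 had reads and 77 had the 10 reads needed for testing. In 51 of the 77 only 1 bait reached 10 reads, in 14 it was 2 baits and in 12 all 3. Reads were tested with edgeR's quasi-likelihood test with library as a term and Benjamini-Hochberg adjustment over the windows of a bait pair. At an adjusted p of 0.05, 47 windows differed between Ciita_2 and Ciita_1 (61.0%), 33 higher for Ciita_2 and 14 lower. Between Ciita_3 and Ciita_1, 43 differed (55.8%), 31 higher for Ciita_3 and 12 lower. Between Ciita_3 and Ciita_2, 59 differed (76.6%), 30 higher and 29 lower for Ciita_3. In most of these windows 1 bait had no fragment with reads at all, namely 40 of 47, 37 of 43 and 48 of 59.

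The counts of windows changed with how low counts and leading libraries were treated. With counts of 1 or 2 set to 0, they became 20, 24 and 29 of 74 windows. With each pair's reads kept in its leading library alone, edgeR called 0, 0 and 0 of 73 windows, and the counts at an unadjusted p under 0.05 were 1, 0 and 0. DESeq2 on the unaltered counts called 34, 30 and 44 windows, and edgeR without TMM factors called 47, 45 and 61. A window is therefore described here by its reads, and no window is taken as reached by 1 bait alone.

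A large upstream contrast lay at chr16:10270001-10280000, about 211 kb from the baits. Ciita_2 had 573 of its 7664 reads there (7.48%), on 5 fragments, and Ciita_1 had 0 of 3741 (edgeR adjusted p = 4.9e-06). With the limit for 0 set at 3 reads over the 8 libraries, the share was at least 93.2-fold higher by counting error alone. Copies of 1 molecule can widen that limit. The contrast depends on the window edges, because Ciita_1 had 99 and 80 reads in the windows on either side, beside 49 and 217 of Ciita_2. In chr16:10290001-10300000, within Emp2, Ciita_2 had 238 reads on 1 fragment while Ciita_1 and Ciita_3 had 0. Emp2 encodes a tetraspan protein of epithelial membranes. At chr16:11090001-11100000 the order turned: Ciita_1 had 159 reads (4.25%) on 1 fragment and Ciita_2 had 0 (edgeR adjusted p = 0.00043). By counting error alone the share of Ciita_2 was at least 109-fold lower, and copies of 1 molecule can widen that limit as well. The windows of this paragraph were picked from the called ones for the size of their change, which favours large values. At chr16:11240001-11250000, within Gspt1, Ciita_3 had 300 reads (4.05%), Ciita_2 had 1 and Ciita_1 had 0. Gspt1 encodes a release factor of translation termination.

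Windows with reads from both baits of a pair differed as well, in 7, 6 and 11 of the called windows. In chr16:10390001-10400000, Ciita_1 had 158 reads on 2 fragments, Ciita_2 had 13 on 1 and Ciita_3 had 339 on 3. The log2 difference there was -3.59 (SE 0.45) for Ciita_2 minus Ciita_1 and 5.20 (SE 0.46) for Ciita_3 minus Ciita_2. In chr16:10420001-10430000, which holds parts of Nubp1 and Tvp23a, the reads fell from 412 for Ciita_1 to 166 for Ciita_2 and 60 for Ciita_3. In chr16:10440001-10450000 Ciita_2 was highest with 491 reads, beside 67 for Ciita_1 and 203 for Ciita_3. In chr16:10510001-10520000, inside Ciita and Dexi, Ciita_2 and Ciita_3 had 445 and 433 reads and Ciita_1 had 96; this window lies farther from Ciita_1 than from the other baits, on the downstream side. Each of the 3 baits had the most reads in at least 1 of these 4 windows.

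A single far window had 10 or more reads from all 3 baits beyond 300 kb, chr16:10820001-10830000, about 339 kb downstream and between protein-coding genes. It held 255 reads of Ciita_1, 173 of Ciita_2 and 197 of Ciita_3. Ciita_2 minus Ciita_1 was a log2 difference of -1.04 (SE 0.43, edgeR adjusted p = 0.042), and the other bait pairs did not pass (edgeR adjusted p = 0.63 and 0.14). Different fragments carried most of these reads for Ciita_2 and Ciita_3: the one that starts at 10827670 had 161 reads of Ciita_2, and the one that starts at 10828677 had 185 of Ciita_3. Both lie within 1 kb of an annotated start of Gm26822, and the second overlaps that gene. IFNγ-named replicate 2 led both.

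Few fragments were shared at the level of the digest. The 233 pairs fell on 200 fragments, of which 168 had reads from 1 bait and 32 from 2 or 3. With 10 or more reads from each bait, 20 fragments were shared, 13 of them upstream and 17 within 100 kb. Ciita_1 and Ciita_2 shared 8 (16.7% of the fragments of Ciita_1 and 9.41% of those of Ciita_2). Ciita_1 and Ciita_3 shared 6 (12.5% and 8.82%), and Ciita_2 and Ciita_3 shared 8 (9.41% and 11.8%), although these last baits lie closest together. The same library led for every bait in 4 of the 20.

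The only fragment with reads from all 3 baits was chr16:10508953-10509248, printed above, with 169 reads of Ciita_1, 40 of Ciita_2 and 86 of Ciita_3. Its leading libraries differed, with 40.2% of the Ciita_1 reads in control-named replicate 4, 70% of the Ciita_2 reads in control-named replicate 3 and 88.4% of the Ciita_3 reads in IFNγ-named replicate 2. The fragment with the most reads in range was chr16:10476921-10477456, about 11 kb upstream of Ciita_2 and just upstream of the first start site, with 392 reads of Ciita_2 and 277 of Ciita_3. Control-named replicate 2 led for both baits, with 42.1% and 37.6%. At chr16:10430200-10430453, within 1 kb of a Tvp23a start, Ciita_1 had 136 reads and Ciita_2 had 112, and IFNγ-named replicate 3 led for both. Tvp23a encodes a Golgi membrane protein.

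The authors' score per pair weighs the reads against a modelled background at that distance, and a score of 5 or more is used here to call a contact within a table. Of the 221 Ciita pairs in the control-named table, 30 reached it (13.6%), and 26 of the 221 in the IFNγ-named table did (11.8%). Over all 14 baits the shares were 11.8% and 10.4%, so the Ciita baits lie near the background. Called pairs numbered 7 and 6 for Ciita_1, 9 and 8 for Ciita_2, and 14 and 12 for Ciita_3 in the control-named and IFNγ-named tables. In at least 1 table, 48 Ciita pairs were called, 28 upstream and 20 downstream, and 42 of them at 100 kb or more. Over all 14 baits it was 232 pairs, 116 upstream and 116 downstream, and 208 of them at 100 kb or more. Of the 40 Ciita pairs called in 1 table only, 40 had their leading library in that table. A table's score rises with its own reads, so this count largely follows from the rule for a call. Both tables called 8 Ciita contacts, beside 29 of the 232 over all 14 baits.

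**Figure D3:**
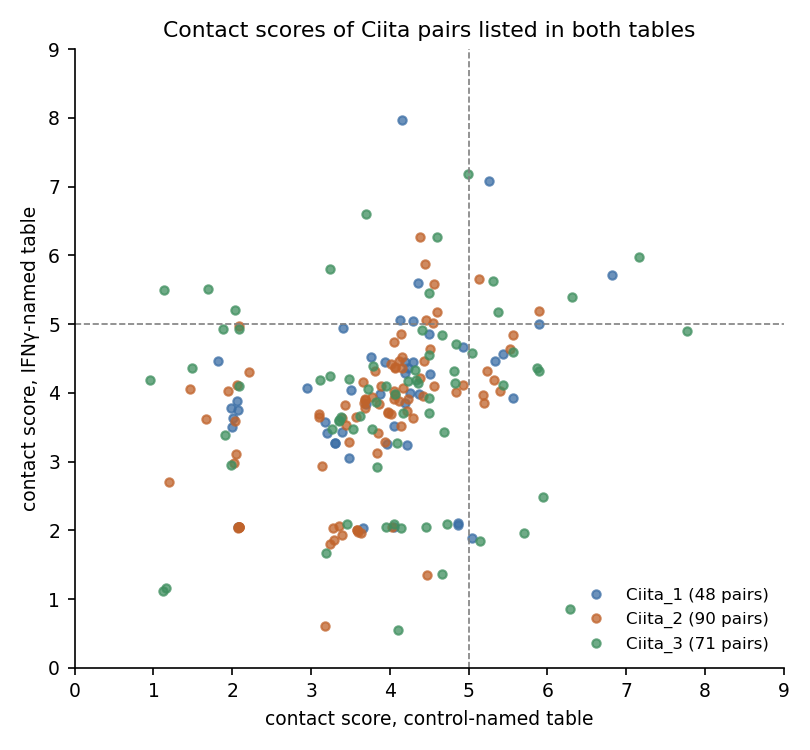
The authors' score of each pair in the control-named table (horizontal) and the IFNγ-named table (vertical), 1 colour per bait, for the pairs listed in both tables (48, 90 and 71), with dashed lines at a score of 5. The upper right corner holds 2 contacts of Ciita_1, 2 of Ciita_2 and 4 of Ciita_3.

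Of the 8, 3 lie upstream within 20 kb of each other, at and beside Emp2. The Ciita_3 contact at chr16:10271453-10271595, 218.2 kb upstream, had 25, 29, 15 and 17 reads in replicates 1 to 4 of the control-named table and 12, 11, 19 and 18 in those of the IFNγ-named table. No library stood out there. The Ciita_2 contact at chr16:10277251-10277432, 210.6 kb upstream, had 38, 27, 100 and 21 reads and then 14, 24, 27 and 30, with control-named replicate 3 far above the rest. The Ciita_2 contact in the Emp2 intron at chr16:10290924-10291212, 196.9 kb upstream, had 26, 29, 25 and 19 reads and then 26, 27, 20 and 66. IFNγ-named replicate 4 was highest there, and the other 7 libraries lay between 19 and 29. Around these contacts most reads of the 3 baits lay on different fragments. Ciita_1 had 80 reads on the fragment that starts at 10283259 in Emp2. Ciita_2 had 161 on the one at 10271953 and 141 on the one at 10288378. Ciita_3 had 174 on the one at 10303816, of which 57.5% came from 1 library. The fragment that starts at 10276815 was shared, with 102 reads of Ciita_2 and 14 of Ciita_3, and control-named replicate 1 led for both.

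A further Ciita_2 fragment, chr16:10314100-10314438, overlaps the Emp2 promoter by 119 bp. Its reads were 11, 15, 16 and 6 in the control-named table and 63, 15, 9 and 13 in the IFNγ-named table, with scores of 4.46 and 5.06. IFNγ-named replicate 1 held 42.6% of the 148 reads, and the other 7 libraries overlap between the tables. The 250 bases before the RefSeq start of Emp2 (GRCm38.p6, minus strand of chr16:10313969-10314218) are shown because this fragment reaches into them, with CCCTC letters on either strand in capitals.
Emp2 promoter: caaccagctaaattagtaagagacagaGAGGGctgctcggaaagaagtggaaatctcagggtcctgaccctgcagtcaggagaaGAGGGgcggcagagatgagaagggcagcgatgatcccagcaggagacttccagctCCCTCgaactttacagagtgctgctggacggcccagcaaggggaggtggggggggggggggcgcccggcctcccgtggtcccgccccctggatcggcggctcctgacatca
It holds 3 CCCTC matches and no GAS, E box or IRF letters, and 60.5% of RefSeq promoters cut to this length hold CCCTC.

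The other 5 contacts of both tables lie downstream, and 4 of them are described here. The Ciita_3 contact chr16:10792957-10793332, 303.4 kb away at Prm2, had 18, 86, 16 and 11 reads and then 11, 18, 19 and 15. Prm2 encodes a protamine that packs sperm DNA. Control-named replicate 2 led this fragment. The Ciita_3 contact chr16:10944565-10944698, at 454.9 kb, was even, with 18, 29, 14 and 11 reads and then 8, 20, 14 and 22.

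The most distant of the 8 lie in Txndc11, which encodes a thioredoxin-domain protein of the endoplasmic reticulum, and in Gspt1. The Ciita_1 contact chr16:11096046-11096796 in a Txndc11 intron, at 616.3 kb, had 18, 17, 12 and 12 reads and then 48, 14, 19 and 19. The Ciita_3 contact chr16:11248096-11248197 in Gspt1, at 758.4 kb, had 26, 22, 13 and 103 reads and then 9, 19, 20 and 22. In each a single library was high, from the IFNγ-named table in the first and from the control-named table in the second. Between the tables edgeR's quasi-likelihood test called 0 of the 8, with log2 differences from -1.25 (SE 0.76) at Gspt1 to 1.03 (SE 0.59) at Txndc11 and adjusted p from 0.304 to 0.996.

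**Figure D4:**
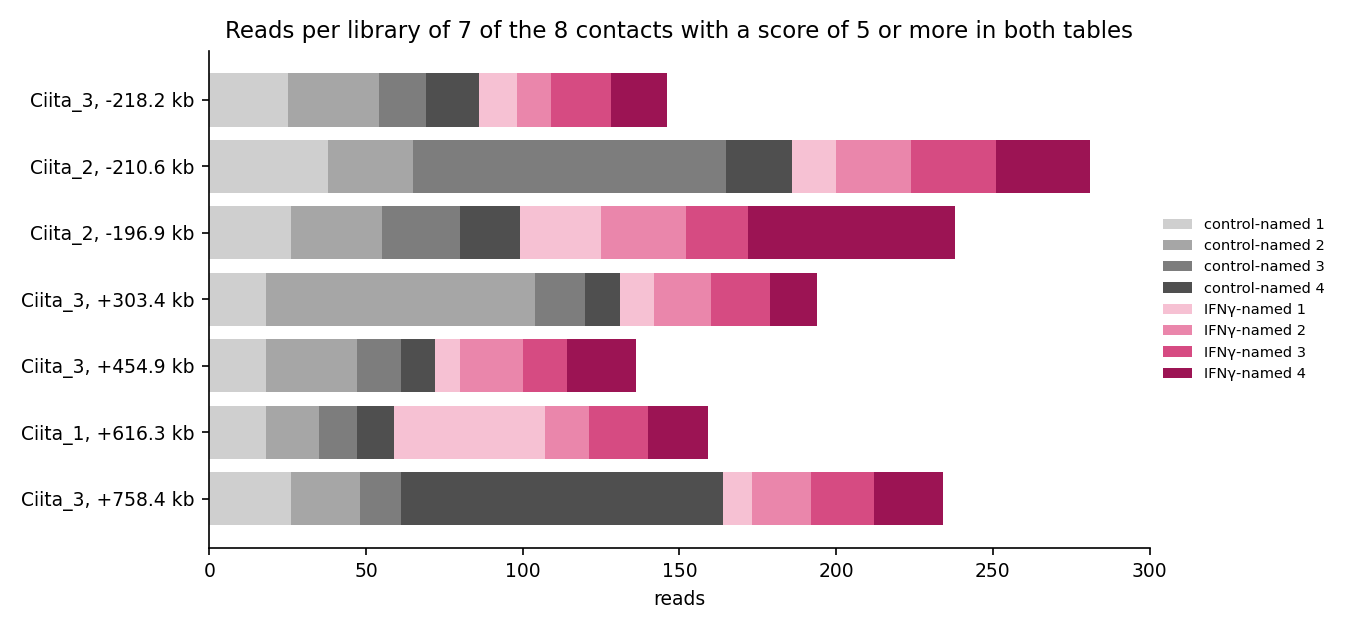
Reads in each of the 8 libraries, stacked, for 7 of the 8 contacts with a score of 5 or more in both tables. The contacts at -218.2 and 454.9 kb are spread over the libraries, and those at 303.4 and 758.4 kb have 1 library with 86 and 103 reads.

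The reads were also summed over the 23 genes listed around the locus, as a share of each bait's in-range reads on fragments that overlap the gene; fragments in overlapping genes count for both. Of 23 genes of IFNγ signalling and MHC class II listed as a pathway, Socs1 alone lies in range. Socs1, the JAK inhibitor that damps IFNγ signalling, had 0 reads from the 3 baits over its 3.30 kb, at which 3 reads of the 3741 of Ciita_1 would be 0.0802%. Tnp2, Prm3, Rsl1d1 and Tnfrsf17 also had 0 reads and Prm1 had 2, and 17 genes reached 10 reads from at least 1 bait. Per 10 kb of gene in range, the level over all baits was highest at Ciita itself (932 reads), followed by Dexi (694), Nubp1 (615), Tvp23a (594), Prm2 (408) and Emp2 (230). Clec16a, a long gene next to Dexi with a role in endosomes and autophagy, had 52.1 per 10 kb, and Grin2a, an NMDA receptor subunit gene, 15.1. The reads at Prm2 all come from 1 Ciita_3 fragment.

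Between baits, 23 of 47 differences in gene shares passed a two-sided exact permutation test over the 8 libraries with Benjamini-Hochberg adjustment over the 47 (48.9%). With counts of 1 or 2 set to 0 the count was 10. With each fragment counted once it was 44, but there the libraries hold nearly the same fragments and p-values come out too small. With each pair counted as 1 in its leading library it was 0, with 0 at an unadjusted p under 0.05. Leaving out 1 library gave 16 to 18, where 7 pairs cannot give a p under 0.0156. The calls below at an adjusted p of 0.0334 were each lost when any of 7 of the 8 libraries was left out. Most of the 23 calls set a bait against one with 0 or almost 0 reads, at Rmi2, Prm2, Litaf, Snn, Gspt1, Snx29 and Zc3h7a. Their small p follows once every library of the other bait has more reads. They are among the 47 used for adjustment, so the adjusted p-values of the other genes come out lower for it.

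Emp2, the upstream gene nearest the contacts called in both tables, took its largest share from Ciita_2. The fragment at its promoter lies outside the gene and is not in this share. Its share of Ciita_1 reads ran from a lowest library of 0.879% through a median of 2.04% to 3.97%. For Ciita_2 it was 4.21%, 5.82% and 10.3%, and for Ciita_3 0.726%, 1.12% and 11.1%. Ciita_2 was higher than Ciita_1 in 8 of 8 libraries, by 4.27 points (exact permutation, adjusted p = 0.0245), and no library of Ciita_1 reached the lowest of Ciita_2. Leaving out the pairs led by 1 library, that difference was 3.69 points and missed the threshold. Against Ciita_3 it was higher in 7 of 8 (Ciita_3 minus Ciita_2 -3.99, exact permutation, adjusted p = 0.0334), and the exception among Ciita_3 libraries was IFNγ-named replicate 4 at 11.1%.

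Nubp1, an assembly factor of cytosolic iron-sulphur proteins, took its largest share from Ciita_1. The lowest, median and highest Ciita_1 libraries were 3.70%, 6.42% and 30.0%, beside 1.66%, 2.78% and 7.86% for Ciita_2 and 1.15%, 1.72% and 4.62% for Ciita_3. Ciita_2 minus Ciita_1 was -5.66 points and Ciita_3 minus Ciita_1 -6.61 points, each in 8 of 8 libraries (exact permutation, adjusted p = 0.0245). Without IFNγ-named replicate 2, the library at 30.0%, they were -3.30 and -3.45 points and still passed. Leaving out the pairs led by 1 library gave -0.53 and -1.64 points and neither passed. Tvp23a overlaps Nubp1 and moved with it, at -8.40 points for Ciita_2 and -11.7 for Ciita_3 against Ciita_1 (7 of 8 libraries each, exact permutation, adjusted p = 0.0334), but its Ciita_2 minus Ciita_1 difference turned to 2.46 points without the pairs led by 1 library.

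Atf7ip2, which encodes a partner of heterochromatin methylation, had a median share of 1.11% for Ciita_1, 2.67% for Ciita_2 and 1.65% for Ciita_3. Ciita_2 minus Ciita_1 was 4.36 points (7 of 8 libraries, exact permutation, adjusted p = 0.0334). It was 2.31 points without control-named replicate 4, a library at 19.8%, and turned to -1.39 points without the pairs led by 1 library. Of the downstream genes, Prm2 had reads from Ciita_3 alone, in every library, with a mean share of 2.47% ± 1.49 (SD, n = 8). Gspt1 had a mean share of 4.93% ± 3.87 for Ciita_3, with all 8 libraries at 2.51% or more, and 0.0% to 0.259% for the other baits. Rmi2, a subunit of the BLM helicase complex, had 1.94% ± 0.370 for Ciita_2 and 0.0% in every Ciita_3 library. A paired test against a bait with 0 or almost 0 reads gives its smallest p once every library of the other bait has more, so no p is given for Prm2, Gspt1 or Rmi2. The share of Rmi2 in Ciita_1 was 0.159% to 5.28%, highest in IFNγ-named replicate 3.

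The share of Txndc11 was lower for Ciita_2 than for Ciita_1 by 4.45 points on average (-4.45, 7 of 8 libraries, exact permutation, adjusted p = 0.0334), and by 2.74 (-2.74, not passing) without IFNγ-named replicate 1. Reads inside Ciita itself, downstream of the excluded 10 kb, made up 23.5% of those of Ciita_1, 12.6% of Ciita_2 and 15.9% of Ciita_3. The baits have different lengths of the gene in range, 38.3, 30.5 and 28.7 kb, and no pair passed (exact permutation, smallest adjusted p = 0.0706). Dexi is a dexamethasone-induced gene that spans 40.5 kb in the annotation and overlaps the downstream part of Ciita. Its means were 15.5% ± 8.00, 11.6% ± 4.02 and 17.2% ± 7.35 (SD, n = 8), and no pair passed (exact permutation, smallest adjusted p = 0.241).

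**Figure D5:**
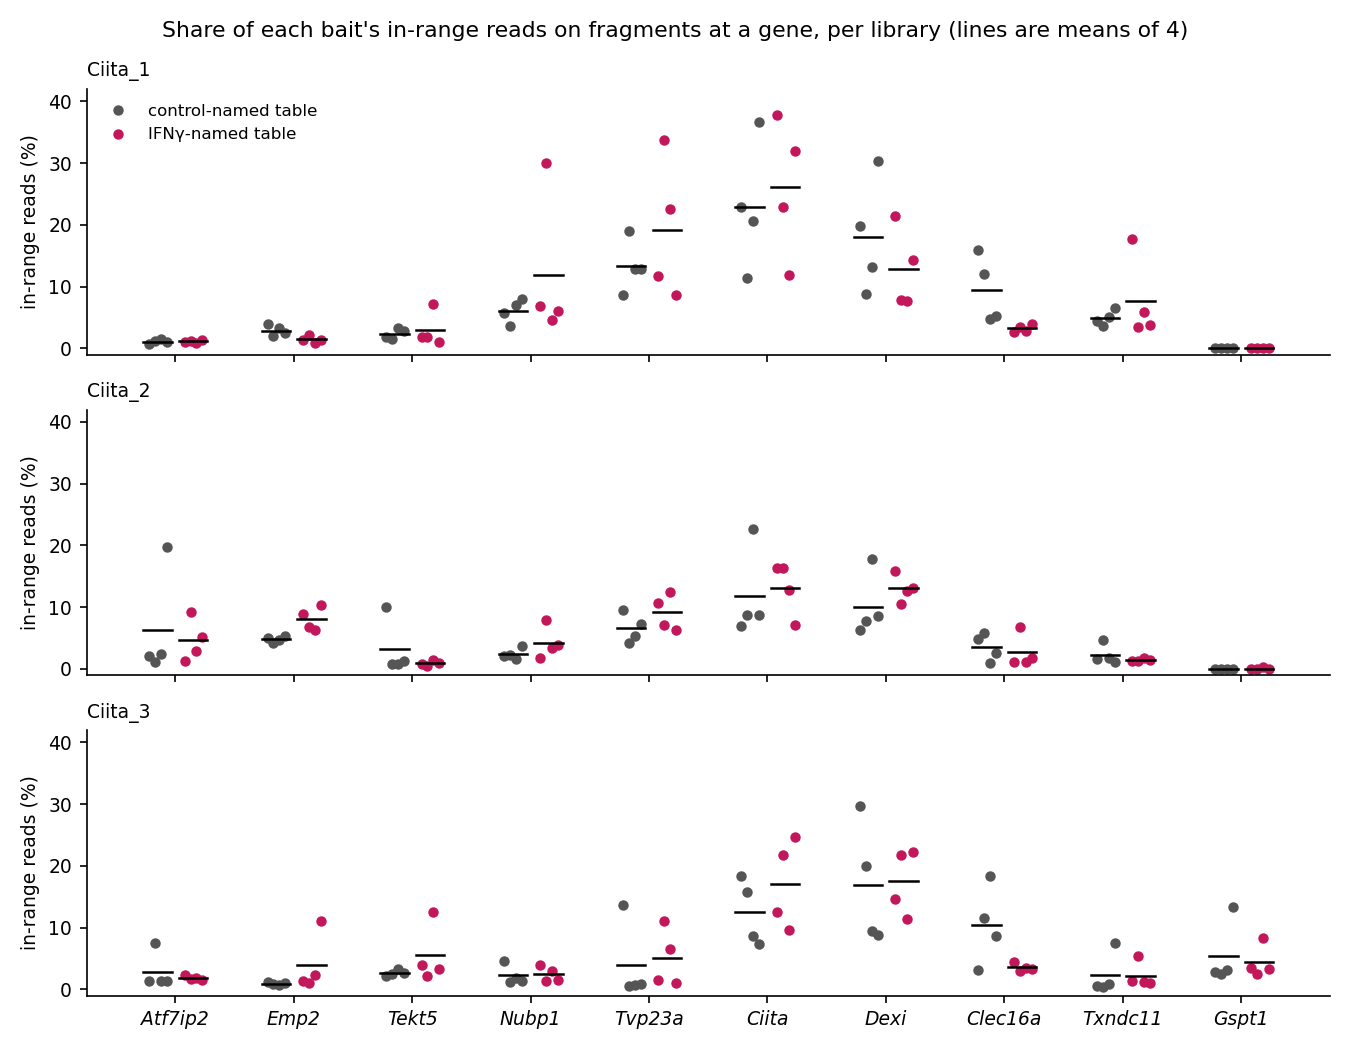
Share of a bait's in-range reads at 10 genes, in percent, for each library, split by table, with lines at the mean of 4 libraries. Emp2 reads of Ciita_2 lie between 4.21% and 5.29% in the control-named table and between 6.36% and 10.3% in the IFNγ-named table; most other groups overlap.

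Between the tables no Ciita contact passed. The edgeR quasi-likelihood test over 3673 pairs of all baits called 0 (0.0%), with 614 at an unadjusted p under 0.05, and DESeq2 called 0, with 274. Of the 233 Ciita pairs, 201 had the 10 reads needed, and 61 of these were at an unadjusted p under 0.05, 32 higher and 29 lower in the IFNγ-named table. In 49 of the 61 the pair had 40 or more reads and a single library held over 50% of them. Pairs of under 40 reads were not included in that count of 49. The median log2 difference was 0.09 over the tested Ciita pairs and -0.05 over all pairs. By bait it was 0.44 for Ciita_1, 0.07 for Ciita_2 and -0.22 for Ciita_3. Without the filter on low counts edgeR called 168 of 30435 pairs, 25 of them Ciita pairs. Windows of 10 kb gave 0 of 657 (0.0%) with edgeR, with 105 at an unadjusted p under 0.05, and 0 with DESeq2, with 58.

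A separation of all 4 libraries of one table from all 4 of the other was seen in 1 Ciita pair, against 1.14% of the 1052 tested pairs of all baits in range. It was the Ciita_3 pair with chr16:10503746-10503909, 14.1 kb downstream in an exonic part of Ciita and Dexi. Its reads were 8, 9, 5 and 8 in the control-named table and 10, 104, 12 and 10 in the IFNγ-named table. The log2 difference was 2.25 (SE 0.84, edgeR adjusted p = 0.282), and 1 library held 62.7% of the reads.

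None of the shares of a bait passed the test between the tables. The nearest was the share of Ciita_1 beyond 100 kb, at 45.6, 44.4, 41.5 and 29.8% in the control-named table and 34.8, 21.0, 25.7 and 31.4% in the IFNγ-named table. The means were 40.3% ± 7.23 and 28.2% ± 6.10 (SD, n = 4 each), a difference of -12.1 points (exact permutation p = 0.0857, adjusted over the 3 baits 0.257), and the tables overlapped. With 4 libraries against 4 the smallest possible p is 0.0286. The upstream share differed by 8.34 points for Ciita_1, -5.57 for Ciita_2 and 3.43 for Ciita_3 (exact permutation, adjusted p from 0.514 to 0.629). The in-range share differed by 2.02, 2.38 and -5.25 points (exact permutation, adjusted p from 0.343 to 0.429).

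At the genes, 0 of 40 gene and bait combinations passed between the tables (0.0%), and in 2 of 40 (5.0%) the libraries did not overlap. Emp2 reads of Ciita_2 made up 4.94, 4.21, 4.68 and 5.29% in the control-named table and 8.91, 6.83, 6.36 and 10.3% in the IFNγ-named table. Every library of the IFNγ-named table lay above every one of the control-named table, with means of 4.78% ± 0.454 and 8.10% ± 1.84 (SD, n = 4 each) and a difference of 3.32 points (exact permutation p = 0.0286, adjusted 0.571). A different Emp2 fragment was high in each library of the IFNγ-named table: replicate 1 had 52 reads on the one that starts at 10288378, replicate 2 had 43 on the one at 10288501, replicate 3 had 12 on the one at 10310583 and replicate 4 had 66 on the one at 10290924. Emp2 reads of Ciita_1 differed by -1.43 points (exact permutation p = 0.0571, adjusted 0.762) and those of Ciita_3 by 3.02 points (exact permutation p = 0.0857, adjusted 0.857). Clec16a reads of Ciita_1 made up 15.9, 12.1, 4.71 and 5.19% and then 2.72, 3.53, 2.86 and 3.98%. Here every library of the IFNγ-named table lay below, with a difference of -6.19 points (exact permutation p = 0.0286, adjusted 0.571). On the Clec16a fragment that starts at 10587368, control-named replicate 1 held 64 of the 120 reads, and on the one that starts at 10701180, replicate 2 held 61 of the 80. Whether a table difference itself differed between baits was tested for 15 combinations of measures and bait pairs, and none passed (exact permutation, smallest adjusted p = 0.0857).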

How the data were processed

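Read counts per fragment pair came from 2 tables that the authors deposited, with 4 columns of counts each, 1 per library. The authors also deposited a score per pair, used only to call contacts within its table, and a modelled background signal, which was not used. Bowtie2 and mm10 are named in the submitters' processing notes; for duplicate reads and the contact caller's settings, the sources used here give no method. Fragment starts on chromosome 16 lay at a GATC site for 1380 of 1380.

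Pairs were joined by fragment number, and a pair listed in 1 table had 0 counts in the other. Genes come from the GENCODE vM21 annotation, and promoters from RefSeq. Tests were edgeR 4.0.16 (quasi-likelihood, TMM, 10 or more reads, adjusted p under 0.05) over all pairs or windows in R 4.3.3, with DESeq2 1.42.0 as the alternative, and two-sided exact permutation tests (SciPy 1.17.1, Python 3.11.15) of shares. DESeq2 gave 359 adjusted p-values of pairs as NA. The edgeR script was tested on simulated data.

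Named were the 3 baits, 23 listed locus genes, each bait's 3 fragments with most reads below and above 100 kb, contacts called in both tables, shared fragments, and up to 5 windows per comparison. The sequence and values of 1 contact called in both tables are not reported here. Members and lists were chosen with earlier results of these data known. Depth was 23037 to 37290 reads per library. Alternatives covered filters, normalization, window size, distance, low counts, pairs led by 1 library and libraries left out.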

Additional observations from a re-analysis of the deposited data

Results flagged for a closer look

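In 23 of 80 groups of 4 libraries (1 gene, 1 bait, 1 table), 1 library's share of reads at a gene stood apart from the other 3 by more than Dixon's 95% critical value for 4 samples; chance alone flags about 1 in 20 groups. No group of the 18 for the upstream, far and in-range shares was flagged. Every flagged library was the highest of its group, and the cause was not tested.

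For Ciita_1 the libraries were IFNγ-named replicate 4 at Grin2a (14% against 1.76 to 3.53%), replicate 3 at Tekt5 (7.25%) and at Rmi2 (5.28%), replicate 2 at Nubp1 (30.0% against 4.62 to 6.79%) and replicate 1 at Txndc11 (17.7%). Tekt5 encodes a tektin of the sperm flagellum.

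For Ciita_2, control-named replicate 1 was high at Grin2a (5.78%), Tekt5 (10.1%) and Snn (4.10%), replicate 3 at Ciita itself (22.7% against 6.90 to 8.71%) and replicate 4 at Atf7ip2 (19.8% against 1.09 to 2.5%). In the IFNγ-named table, replicate 2 was high at Clec16a (6.76%), replicate 4 at Litaf (3.64%) and replicate 1 at Snx29 (8.91%). Litaf encodes an endosomal protein and Snx29 a sorting nexin.

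For Ciita_3, control-named replicate 2 was high at Atf7ip2 (7.45%), replicate 1 at Tvp23a (13.7%), and replicate 4 at Txndc11 (7.53%), Gspt1 (13.3%) and Snx29 (13.7% against 0.135 to 0.154%). In the IFNγ-named table, replicate 4 was high at Emp2 (11.1%), replicate 3 at Tekt5 (12.6%), Zc3h7a (9.05%) and Gspt1 (8.32%), and replicate 2 at Txndc11 (5.4%).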

How the results depend on the processing

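No paired analysis was possible because the count columns name neither the mouse nor the passage, so libraries of the 2 tables could not be matched; tests between baits pair the baits within a library. Of 733 alternatives run over 50 results, 605 left the result the same and 5 of the others reversed, and the cause was not tested. A tested difference was the same if it kept its side of the threshold, and its direction where either value was past it. A count of calls was the same if it stayed near the main count. For a table alone, a difference was the same if it moved by less than the SD of the paired differences. Without a count filter edgeR called 168 pairs between tables, of 30435. Windows called for Ciita_2 against Ciita_1, Ciita_3 against Ciita_1 and Ciita_3 against Ciita_2 fell from 47, 43 and 59 to 20, 24 and 29 with counts of 1 or 2 set to 0, to 37 for the last in windows of 25 kb, where 50 were tested, and to 0, 0 and 0 in the leading library alone, an alternative chosen after seeing the data. Leaving out 1 library gave 43 to 47, 38 to 42 and 55 to 61. With each pair counted as 1 in its leading library, the upstream differences were 14.4 points (Ciita_2 minus Ciita_1) and -11.2 (Ciita_3 minus Ciita_2), no longer past the threshold. Leaving out 1 library gave 16.7 to 21.6 and -19.7 to -14.3. Counting each fragment once turned Ciita_3 minus Ciita_1 to -7.66 and, beyond 100 kb, Ciita_3 minus Ciita_2 to 1.43.

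Beyond 100 kb, Ciita_2 minus Ciita_1 passed from 20 kb (15.4 points) and without pairs led by 1 library (17.0), and ranged from 13.7 to 18.8 when 1 library was left out. Ciita_3 minus Ciita_1 ranged from 10.1 to 17.8, and Ciita_3 minus Ciita_2 passed without led pairs (-12.8). With fragments counted once the first was 13.4 and the second 14.8, and both passed. Libraries hold nearly the same fragments in that setting, so its p-values come out too small and a pass there carries little weight. The in-range share passed for Ciita_2 minus Ciita_1 from 20 kb (4.77) and without led pairs (10.4), and for Ciita_3 minus Ciita_2 without led pairs (-7.77). Gene shares called between baits numbered 44 with fragments counted once, 10 with low counts set to 0 and 0 with each pair counted as 1 in its leading library. Without led pairs, Atf7ip2 turned to -1.39 and -0.16 points (Ciita_2 and Ciita_3 minus Ciita_1) and Tvp23a to 2.46. Single fragments had a median of 64 to 75 reads over 8 libraries, which limits what their tests can show.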
